A study of Mus musculus with 30 samples.

Results

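The 10 genes described here encode subunits of the transcription factor NF-kB and proteins that feed back on it: Rela, Relb, Nfkb1, Nfkb2, Nfkbia, Nfkbie, Nfkbiz, Tnfaip3, Birc3 and Bcl3. They were taken by name from the gene table of an RNA-seq series on CASC15, a long noncoding RNA, in mouse aortic smooth muscle cells. The table lists 78334 gene identifiers, of which 51486 received a gene symbol, and all 10 names were found by Ensembl identifier. Each of the 10 passed the filter on low counts in both sequencing runs, with 53 to 4884 reads per library.

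NF-kB is a dimer of Rel-homology proteins that is held in the cytoplasm by inhibitors of the IkB family and enters the nucleus when receptors for cytokines or microbial products activate the IkB kinases. RelA (p65) and RelB carry transactivation domains, while Nfkb1 and Nfkb2 encode the precursors of p50 and p52. Several of the genes that NF-kB switches on encode its own inhibitors, so their RNA is often read as a mark of recent pathway activity. In vascular smooth muscle the pathway is known for inducing chemokines, adhesion molecules and matrix metalloproteinases.

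The 30 libraries fall into 9 groups of cultured mouse aortic smooth muscle cells, whose genotype, strain and age the labels do not give. Sequencing used paired reads of 75 bp in runs named 2 and 3. Serum was withdrawn for 48 h in every group, and transfected cells were kept for at least 24 h. Run 2 held untreated cells that received a control GapmeR antisense oligonucleotide (2 libraries), a GapmeR labelled total CASC15 knockdown (2), a control plasmid (3) or a plasmid for total CASC15 overexpression (3). The 5 groups of run 3 had 4 libraries each. In 3 of them cells had the knockdown control and received nothing, angiotensin II (10 ng/ml) or PDGF-BB (10 to 30 ng/ml) for 24 h. In the other two, long CASC15 was knocked down, and cells received nothing or the same dose of angiotensin II. Angiotensin II is a vasoconstrictor peptide and PDGF-BB a growth factor for smooth muscle cells. A batch label, P16 to P19, goes with the replicate number. In run 2, P17, P18 and P19 are replicates 1, 2 and 3, while run 3 starts with P16 as replicate 1 and ends with P19 as replicate 4, so a batch holds at most 1 library of a group. The labels do not say whether replicates were separate cultures or animals, and p-values measure only the spread between these libraries. The protocol text mentions rat as well as mouse cells, and does not say what the words total and long stand for. The titles of most knockdown and overexpression libraries number the gene upward from CASC15, library by library, whereas the library names give 1 name per group, and the groups here follow the library names.

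Library totals ran from 18007199 to 21881959 reads in run 2 and from 15771490 to 30362047 in run 3, and 15350 and 15103 genes were tested. The mouse gene taken for CASC15, 2610307P16Rik, was at 6.42 ± 2.34 CPM (read counts scaled to the same library total, mean and SD, n = 3) with the control plasmid and 716 ± 174 (n = 3) with overexpression, and at 5.52 ± 0.53 (n = 4) in untreated run 3 controls against 2.87 ± 0.561 (n = 4) with long CASC15 knockdown. In the libraries labelled total CASC15 knockdown it was at 9.01 ± 1.02 (n = 2) against 7.02 ± 0.913 (n = 2) in their control, so it was not lower there, and that label is used only as a name below. Smooth muscle markers summed to 665 to 1218 CPM per library, but Cnn1 had 3 counts or fewer in every library of 7 groups. Of 10 macrophage markers Ptprc, Adgre1, Tyrobp and Mrc1, and of 10 endothelial markers Cdh5, Emcn, Erg and Tie1, had 3 counts or fewer in every library. The other markers were not all that low, and the whole lists summed to 8.69 to 32.7 and 2.71 to 11.9 CPM per library. Fibroblast markers summed to 685 to 2376 CPM. In bulk RNA, fewer cells that express a gene and less of its RNA per cell cannot be told apart.

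The promoter sequences of 4 of the genes are shown here because they stand at the ends of the response to overexpression described below: among the genes with a sequence, Bcl3, Nfkbie and Nfkbia had the largest called changes and Rela the smallest change. Each stretch runs 5′ to 3′ on the gene's strand from position -150 to position 11, counting the annotated start base as 0, and capitals mark matches to the kB consensus motif of 10 bases that NF-kB dimers bind. Sequences are from RefSeq on GRCm38.p6: chr7:19822744-19822905 (minus strand) for Bcl3, chr17:45555550-45555711 (plus) for Nfkbie, chr12:55492636-55492797 (minus) for Nfkbia and chr19:5637391-5637552 (plus) for Rela. The submitters' notes name GRCm39 and mm10 (the name of GRCm38 in another browser) and do not say which of them the count table used.
Bcl3: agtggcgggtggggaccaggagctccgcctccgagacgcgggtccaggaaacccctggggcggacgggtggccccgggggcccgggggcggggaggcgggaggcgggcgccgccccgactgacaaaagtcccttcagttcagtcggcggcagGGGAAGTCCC
Nfkbie: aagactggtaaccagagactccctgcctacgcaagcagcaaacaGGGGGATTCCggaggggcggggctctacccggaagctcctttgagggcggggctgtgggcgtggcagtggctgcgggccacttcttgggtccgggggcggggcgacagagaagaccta
Nfkbia: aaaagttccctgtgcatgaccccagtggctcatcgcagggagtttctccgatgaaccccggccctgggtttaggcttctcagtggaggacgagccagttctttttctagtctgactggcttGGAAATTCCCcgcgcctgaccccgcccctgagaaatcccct
Rela: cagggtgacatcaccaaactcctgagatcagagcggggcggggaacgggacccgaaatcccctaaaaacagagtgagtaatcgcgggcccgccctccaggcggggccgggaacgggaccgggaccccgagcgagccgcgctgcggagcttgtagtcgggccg
The match begins at position 2 in Bcl3, at -106 in Nfkbie and at -29 in Nfkbia, and the Rela stretch holds none. Both strands were searched over the whole windows of 300 bases (250 before the start to 50 after). The table held windows for 7 of the 10 genes, 10 windows in all, and 7 of these windows, from 5 genes, held at least 1 match: Bcl3, Nfkbie, Nfkbia, Tnfaip3 with matches at -125 and -12, and Nfkb2 with overlapping matches at -39 and -38 and a further one at -11 in its first window. The other two windows of Nfkb2 overlap and share 1 match, which is counted in both. No match was found in the windows of Rela and Birc3 or in the second window of Tnfaip3. Relb, Nfkb1 and Nfkbiz had no window. Among all 32851 windows of this length in the table, 4.51% held a match and 0.554% held matches at more than 1 position. A match is a sequence description only, and binding was not measured. Whether matches go with the response was not tested, since the 4 sequences shown were picked by that response.

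Levels are given in CPM with TMM scaling. Per kilobase of merged exon sequence, untreated run 3 controls had the most Rela RNA of the 10, at 38.9 ± 2.76 RPKM (SD, n = 4), followed by Nfkbia at 25.8 ± 2.62 and Nfkb2 at 13.8 ± 0.648. Birc3 was lowest at 1.76 ± 0.144 RPKM, with Relb at 2.74 ± 0.388 and Nfkbie at 2.86 ± 0.466. The RPKM of Nfkb1, 4.69 ± 0.339, is divided by a merged length of 12061 bases that joins all annotated isoforms and is therefore low for the isoform length of any 1 transcript. Counts were whole numbers in all 30 libraries for 8 of the genes, while Nfkb2 had values that were not whole in 20 libraries and Birc3 in 1, which marks reads that RSEM divided between genes.

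Overexpression of total CASC15 raised 8 of the 10 genes over the control plasmid, and lowered none. Bcl3 rose most, 4.63-fold, followed by Nfkbiz, Nfkbie and Nfkbia, which rose 3.22-fold to 3.56-fold, and by Relb at 2.69-fold. Nfkb1, Nfkb2 and Birc3 rose 1.63- to 1.81-fold, while Rela was 1.08-fold higher and did not pass the test. Over all genes tested, 1.09% were called higher in this comparison, and with the batch as a block in the fit 9.40% were, when 9 of the 10 genes passed, Tnfaip3 being added. The median log2 fold change was 1.34 over the 10 genes and 0.00 over all genes tested. Adjusted p-values come from the quasi-likelihood test of edgeR, adjusted by Benjamini-Hochberg over all genes tested, and a gene is called when its value is under 0.05.

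**Figure D1:**
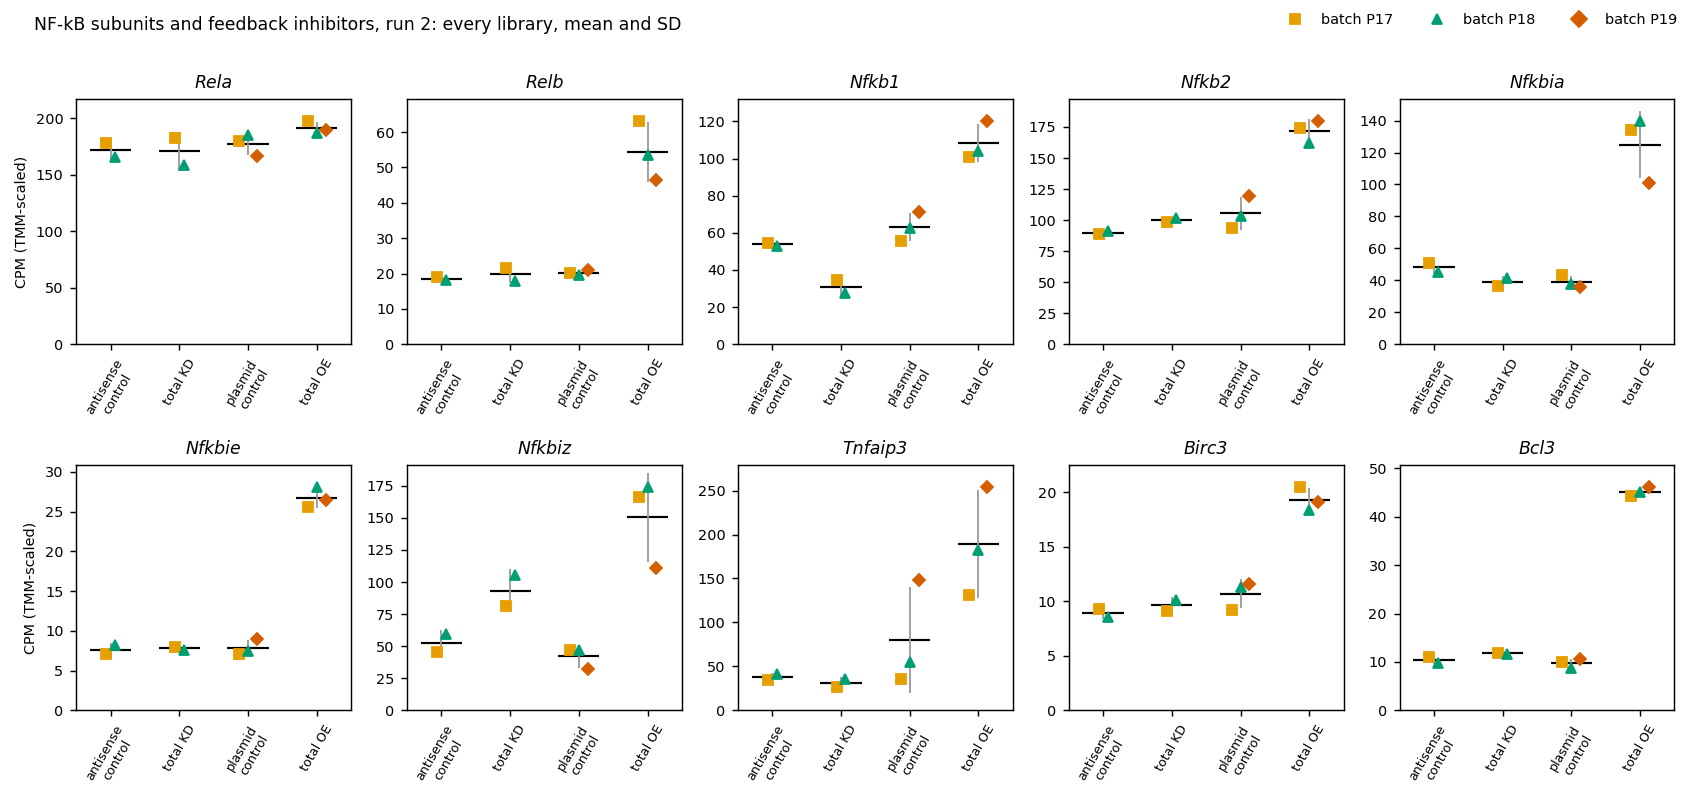
CPM of each of the 10 genes (vertical axes, from 0) in the 10 libraries of run 2 by group (horizontal axes); KD stands for knockdown and OE for overexpression, coloured marks give the batch, black lines the group mean and grey bars 1 SD. In every panel but that of Tnfaip3, the 3 overexpression libraries lie above all 3 control plasmid libraries, against 9.6% of all genes tested, and for Rela, which was not called, the distance is small (187 to 197 against 166 to 185 CPM).

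Among the subunits, Relb was at 20.3, 19.5 and 20.9 CPM in the control plasmid libraries of batches P17, P18 and P19 and at 63.2, 53.5 and 46.5 with overexpression. The groups did not overlap, and the fitted log2 difference was 1.43 (SE 0.133, adjusted p = 0.00106). Nfkb1 was at 55.8, 62.7 and 71.0 CPM in the controls and at 101, 104 and 120 with overexpression (log2 fold change 0.78, SE 0.129, adjusted p = 0.0193). Nfkb2 was at 93.8, 103 and 120 CPM and at 174, 162 and 180 (log2 fold change 0.71, SE 0.104, adjusted p = 0.0115). The subunit Rela stood at 180, 185 and 166 CPM and at 197, 187 and 190, higher in 3 of 3 batches but with a fitted log2 difference of 0.11 (SE 0.0938, adjusted p = 0.626).

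The classical IkB inhibitors, which mask the nuclear localisation of the dimers, rose more than the subunits Nfkb1 and Nfkb2 did in log2 terms, although no test compared the genes with each other. Nfkbia, which encodes IkBα, was at 43.1, 37.6 and 35.5 CPM with the control plasmid and at 134, 140 and 101 with overexpression, so that the lowest overexpression library was above the highest control. Its fitted log2 difference was 1.69 (SE 0.144, adjusted p = 0.000715). Nfkbie, which encodes IkBε, was at 7.03, 7.48 and 8.96 CPM against 25.5, 28.1 and 26.4 (log2 fold change 1.77, SE 0.144, adjusted p = 0.000644).

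The nuclear IkB proteins act as cofactors on dimers bound to DNA. Bcl3, which binds p50 and p52 homodimers, was at 9.95, 8.75 and 10.5 CPM with the control plasmid and at 44.4, 45.1 and 46.1 with overexpression. The spread within each group was narrow and the fitted log2 difference was 2.21 (SE 0.117, adjusted p = 2.75e-05). Nfkbiz, which encodes IkBζ, a cofactor for genes such as Lcn2, was at 47.3, 47.4 and 31.9 CPM against 166, 174 and 111. The P19 library was lowest in both groups, while the ratio within batches, on the log2 scale, ran only from 1.80 to 1.88. Its fitted log2 difference was 1.83 (SE 0.225, adjusted p = 0.00464).

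Tnfaip3 encodes A20, an enzyme that edits ubiquitin chains and shuts off signalling to the IkB kinases, and Birc3 encodes cIAP2, a ubiquitin ligase at the TNF receptor complex. Tnfaip3 was at 36.0, 55.1 and 148 CPM with the control plasmid and at 131, 183 and 254 with overexpression. Each batch was higher with overexpression, but the P19 control lay above the P17 overexpression library, and the groups overlapped. Without the block the fitted log2 difference was 1.25 (SE 0.471, adjusted p = 0.257). With it, the value was 1.44 (SE 0.212, adjusted p = 0.0069). Birc3 was at 9.19, 11.3 and 11.6 CPM against 20.5, 18.4 and 19.1 (log2 fold change 0.86, SE 0.142, adjusted p = 0.0193).

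The calls in the overexpression comparison, more than the sizes of the changes, depended on the libraries in the fit without the block. Without the replicate 1 libraries (P17) of all groups, or without those of replicate 2 (P18), 0 of the 10 genes passed, and 3 and 0 genes passed over the whole table, while without replicate 3 (P19) 9 of the 10 and 844 genes in all passed, Tnfaip3 being added. The fits without P17 or P18 leave 1 library in each antisense group, and over all 19 refitted alternatives the log2 fold change stayed between 2.14 and 2.27 for Bcl3, 1.69 and 1.89 for Nfkbie and 1.57 and 1.81 for Nfkbia. With the block, 8 of the 10 passed without P17 (866 genes in all), 8 without P18 (1150) and 9 without P19 (2587). Without the single P18 control plasmid library, Nfkb1, Nfkb2 and Birc3 lost their calls. Nfkb1 and Birc3 also lost their calls without the P17 control plasmid library or the P18 overexpression library, and Birc3 without the P17 overexpression library, while Tnfaip3 passed without the P19 control plasmid library (log2 fold change 2.06, adjusted p = 0.0104).

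Around the 10 genes, other parts of the pathway were read from lists of regulators, receptors, ligands and target genes. Of 30 known NF-kB target genes tested, 11 rose and 0 fell with overexpression (25 and 1 with the block), with a median log2 fold change of 1.54. Lcn2, a siderophore-binding protein, was at 216 ± 81.0 CPM (SD, n = 3) with overexpression and had at most 1 count in any control plasmid library, at least 1381-fold higher against a floor of 3 counts per control library. Saa3, an acute-phase protein, was at 26.6 ± 23.4 CPM, at least 170-fold higher on the same basis, and at least 85.9-fold without the P19 overexpression library. Nos2, the inducible nitric oxide synthase, was at 13.2 ± 7.35 CPM and at least 84.0-fold higher. Floors and intervals of this kind cover counting error only.

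Of 39 kinases, adaptors and other regulators tested, 5 rose and 0 fell with overexpression (12 and 0 with the block). Zc3h12a, which encodes Regnase-1, an RNase that degrades inflammatory mRNAs, rose from 9.43 ± 1.46 to 85.0 ± 6.83 CPM (n = 3 each, log2 fold change 3.17, adjusted p = 1.88e-05). Tnip1, a partner of A20, rose by a log2 fold change of 1.098 (adjusted p = 0.00326) and Traf2, an adaptor of TNF receptors, by 0.80 (adjusted p = 0.00749). Of 17 receptors tested, 4 rose and 0 fell (6 and 1 with the block). Among those that rose were Tlr2 (log2 fold change 2.05, adjusted p = 0.00106), the TNF receptor gene Tnfrsf1b (0.73, adjusted p = 0.046) and Il17ra (0.51, adjusted p = 0.0292). None of the 4 ligand genes tested was called (0 higher and 2 lower with the block).

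The control plasmid itself differed from the control antisense oligonucleotide in other genes, and the comparison of these controls shares the control plasmid libraries with the comparison above and the control oligonucleotide libraries with the one below. None of the 10 genes was called between the controls by edgeR, with or without the block. Without the block 0 had an unadjusted p under 0.05, and the smallest adjusted p was 0.573 (0.377 with the block). Over all genes, 1.18% were called in either direction (2.99% with the block). DESeq2 also called 0. Nfkbia was at 51.1 and 45.3 CPM with the control oligonucleotide against 43.1, 37.6 and 35.5 with the plasmid, and Bcl3 was at 10.96 and 9.78 against 9.95, 8.75 and 10.5. Tnfaip3 had the largest difference (log2 fold change 1.08, SE 0.542, adjusted p = 0.573), with 34.6 and 41.0 CPM in the oligonucleotide controls and 148 in the P19 plasmid control; without the filter on low counts it passed. That difference rested on the P19 library, without which it was 0.27, and it was 0.44 with the block.

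Type I interferon-stimulated genes moved with the plasmids. The 12 listed genes summed to 132 to 172 CPM per library with the control oligonucleotide, to 3366 to 7396 with the control plasmid and to 5946 to 8654 with overexpression. Between the controls 10 of 12 were called higher, and between overexpression and control plasmid 0 were (3 with the block). Both plasmid groups thus carried high interferon-stimulated RNA, and its part in the rise of the 10 genes was not tested. Markers of macrophages summed to 11.5 to 12.8 CPM with the control plasmid and to 18.2 to 23.6 with overexpression, where Cd14, which is also a co-receptor for lipopolysaccharide, rose by a log2 fold change of 0.81 (adjusted p = 0.0262), and their part was not tested.

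**Figure D2:**
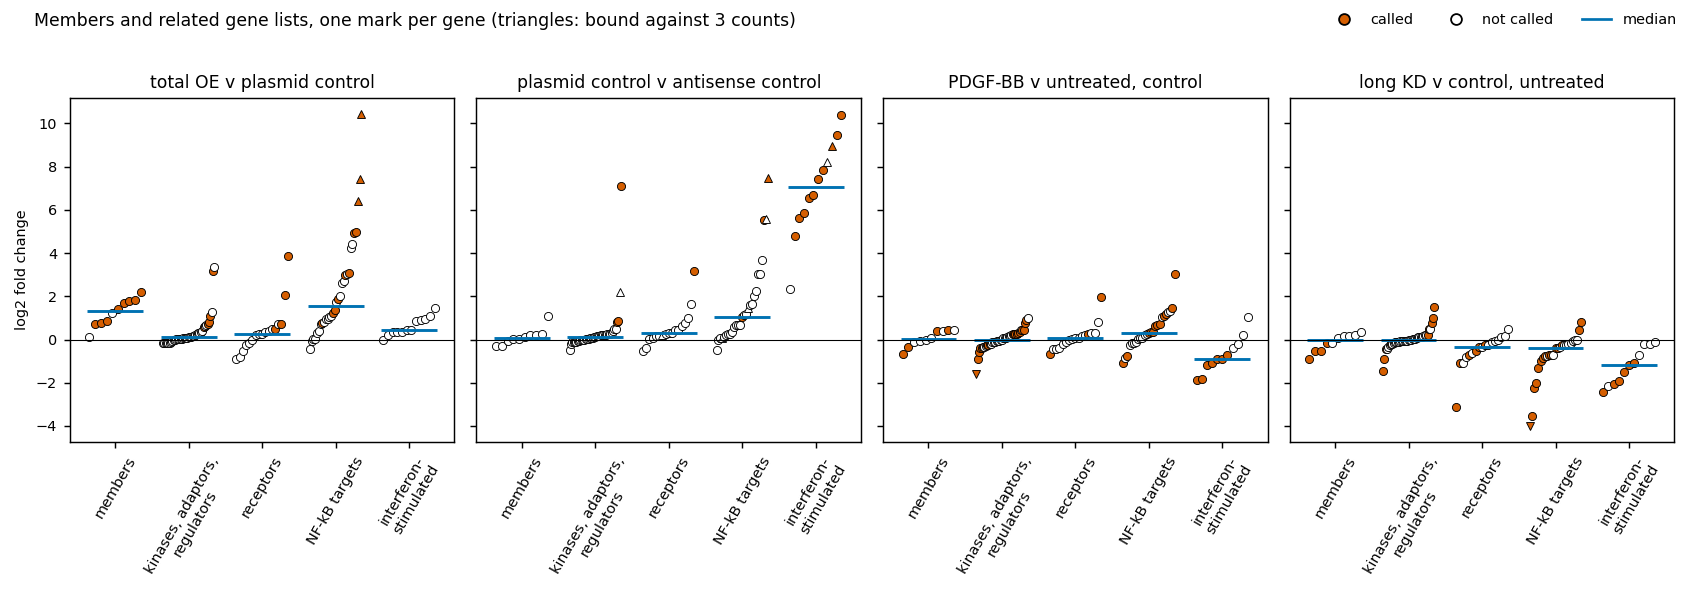
Log2 fold change (vertical axes) of every tested gene of 5 lists in 4 comparisons; orange marks are called genes, triangles are bounds for genes at or under 3 counts throughout a group, and blue lines are list medians with those bounds. The 10 genes and the NF-kB targets have medians of 1.34 and 1.54 with overexpression, while the interferon-stimulated genes have a median of 7.06 between the 2 controls.

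In the libraries labelled total CASC15 knockdown, 1 of the 10 genes fell against the control oligonucleotide and 0 rose, with 1.50% of all genes called higher and 0.560% lower. Nfkb1 was at 54.5 and 53.0 CPM in the controls and at 34.8 and 27.3 in the libraries labelled total CASC15 knockdown. The groups did not overlap, and 23.0% of all genes tested were also lower without overlap. For Nfkb1 the fitted log2 difference was -0.79 (SE 0.16, adjusted p = 0.0391). The call did not hold when any 1 of the 4 libraries was left out, which leaves 1 library in a group, although the log2 fold change stayed between -0.99 and -0.63 in all 13 refitted alternatives. With the block, when 8.76% of all genes were called higher and 5.63% lower, Nfkbiz passed as well as Nfkb1: it was at 45.2 and 59.6 CPM against 81.3 and 105, a log2 fold change of 0.83 (adjusted p = 0.186 without the block and 0.000641 with it).

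The other 8 genes were not called in that comparison, with log2 fold changes from -0.30 for Nfkbia to 0.18 for Bcl3. None of the 30 NF-kB targets was called (4 higher with the block), and the one ligand called was Il33, an alarmin of the interleukin-1 family, which fell by a log2 fold change of -1.001 (adjusted p = 0.0398). These libraries also held the highest macrophage marker sum of any group, 27.9 to 32.7 CPM against 8.69 to 10.4 in their control, led by Cd68, at 15.8 ± 0.181 against 0.43 ± 0.23 CPM (n = 2 each, log2 fold change 5.19, adjusted p = 0.00576). Endothelial markers summed to 7.52 to 11.9 CPM against 3.39 to 4.94 and fibroblast markers to 830 to 870 against 1014 to 1097, and the smooth muscle marker Myh11 rose (log2 fold change 2.47, adjusted p = 0.0239). The part of those markers in the values above was not tested.

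Knockdown of long CASC15 lowered 4 of the 10 genes in untreated cells and raised 0, with 12.3% of all genes called higher and 12.8% lower. The genes that fell were Bcl3, Tnfaip3, Nfkbie and Nfkb2, to 0.535 to 0.884 times the control level. With the block the same 4 fell and Nfkb1 and Nfkbiz rose, beside 20.0% of all genes higher and 20.6% lower. The median over the 10 genes was -0.04 and over all genes tested 0.02.

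Bcl3 was at 11.003, 8.55, 9.33 and 5.62 CPM in the untreated controls of P16 to P19 and at 5.56, 5.06, 4.13 and 3.61 with long CASC15 knockdown. All 4 knockdown libraries lay below the lowest control, P19, though P16 of the knockdown only just did. The fitted log2 difference was -0.90 (SE 0.26, adjusted p = 0.0143). Tnfaip3 was at 83.6, 74.2, 90.7 and 80.2 CPM against 56.0, 53.7, 54.1 and 63.6, with a gap between the groups and a fitted log2 difference of -0.53 (SE 0.0712, adjusted p = 1.56e-05). Of all genes tested, 12.2% had every knockdown library below every control library.

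Nfkbie was at 9.66, 8.18, 10.0 and 6.94 CPM against 6.17, 6.29, 6.69 and 5.04, again without overlap (log2 fold change -0.52, SE 0.138, adjusted p = 0.00826). Nfkb2 was at 60.9, 66.8, 64.2 and 60.5 CPM against 57.1, 52.5, 57.0 and 56.3 (log2 fold change -0.18, SE 0.0586, adjusted p = 0.0304). Nfkbiz was at 66.9, 59.5, 59.4 and 39.0 CPM against 68.7, 86.4, 79.7 and 48.1, so that P19 was lowest in both groups and every batch was higher with knockdown. Its log2 fold change was 0.33 with either fit, with an adjusted p of 0.267 without the block and 0.000317 with it, and that of Nfkb1 was 0.14 (adjusted p = 0.101) and 0.15 (adjusted p = 0.0355).

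Under angiotensin II, long CASC15 knockdown was compared with control cells given the same peptide, in libraries separate from the untreated ones. Here 4 of the 10 genes fell and 1 rose, beside 13.4% of all genes higher and 13.3% lower. Bcl3 was at 10.9, 9.27, 8.47 and 5.61 CPM in the controls and at 4.83, 5.45, 4.59 and 2.64 with knockdown (log2 fold change -0.97, SE 0.263, adjusted p = 0.0097). Tnfaip3 fell by 0.57 on the log2 scale (SE 0.0714, adjusted p = 7.13e-06), Nfkbie by 0.64 (SE 0.138, adjusted p = 0.0018) and Nfkb2 by 0.18 (SE 0.0588, adjusted p = 0.0318), each without overlap of the groups. Over all genes tested, 12.4% had every knockdown library below every control library in this comparison.

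Rela rose under angiotensin II, from 123, 111, 110 and 111 CPM to 137, 143, 130 and 117, with overlapping groups and every batch higher (log2 fold change 0.21, SE 0.0657, adjusted p = 0.0202). With the block, Nfkbia fell (-0.22, adjusted p = 0.00904) and Nfkbiz rose (0.23, adjusted p = 0.00698) in addition, beside 20.4% of all genes higher and 20.9% lower. Without the block, leaving out all libraries of P16, of P17 or of P18 left 2 of the 10 genes called under angiotensin II. In untreated cells it left 1, 1 and 2. Calls over the whole table also fell, to 2048, 1842 and 2332 genes under angiotensin II and to 1971, 1837 and 1997 in untreated cells. Leaving out P19 went the other way, with 7 of the 10 and 6049 genes called under angiotensin II. In untreated cells it gave 5 of the 10 and 6062 genes. Under angiotensin II, Rela and Nfkb2 lost their calls without the P18 control library, and also without the P17 knockdown library. In untreated cells Bcl3 lost its call without the P16 control library (log2 fold change -0.76, adjusted p = 0.0534). Tnfaip3 kept its call in all 23 refitted alternatives of either comparison, while Nfkb2 lost it in 8 and 10 of them and Rela, under angiotensin II, in 8.

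**Figure D3:**
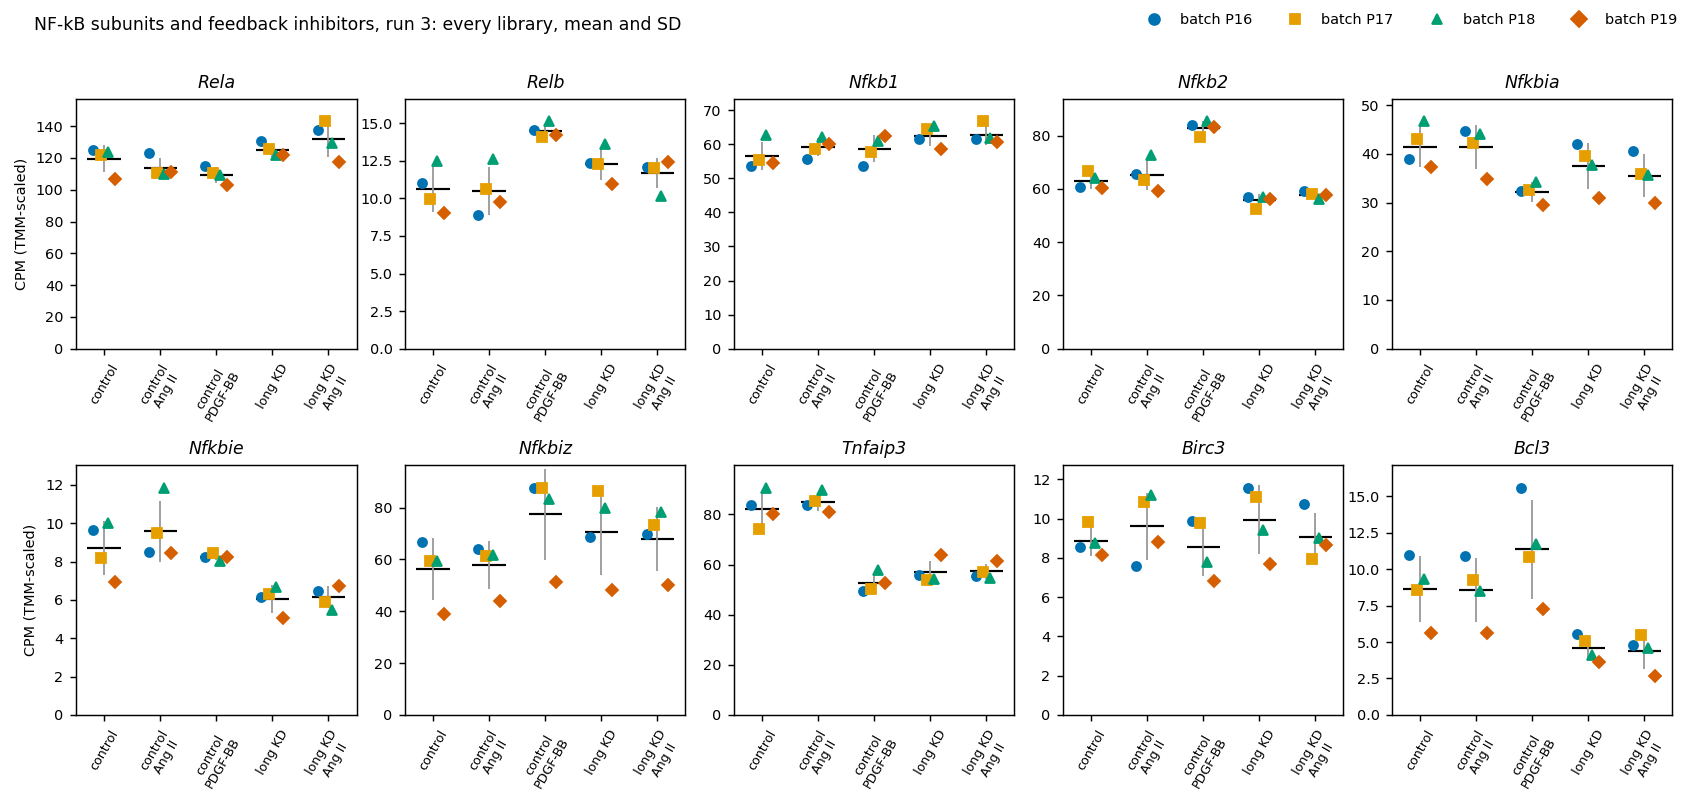
CPM of each of the 10 genes (vertical axes, from 0) in the 20 libraries of run 3 by group (horizontal axes); coloured marks give the batch, black lines the group mean and grey bars 1 SD. Bcl3, Tnfaip3 and Nfkbie are lower in both groups with long CASC15 knockdown (KD) than in their controls, and the P19 mark is the lowest in all 5 groups for Nfkbiz and Nfkbia.

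Of 25 NF-kB target genes tested in run 3, 13 fell and 2 rose with long CASC15 knockdown in untreated cells (16 and 2 with the block), and 12 fell and 2 rose under angiotensin II (15 and 2). The median log2 fold changes were -0.39 and -0.72. Il6, an inflammatory cytokine, was at 2.52 ± 0.695 CPM (SD, n = 4) in untreated controls and had 0 counts in every knockdown library, at least 15.998-fold lower against 3 counts per library. Cfb, complement factor B, fell by a log2 fold change of -3.53 (adjusted p = 1.45e-05) in untreated cells and of -2.82 (adjusted p = 9.45e-05) under angiotensin II, and Ccl2, a monocyte chemoattractant, fell by -2.14 (adjusted p = 9.8e-07) under angiotensin II. Lcn2 was at 1.15 ± 0.532 CPM in untreated controls and 0.229 ± 0.109 with knockdown (log2 fold change -2.25, adjusted p = 0.0276).

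Of 39 regulators tested with long CASC15 knockdown, 5 rose and 4 fell in untreated cells, and 5 rose and 5 fell under angiotensin II, close to the shares of all genes given above. Cyld, a deubiquitinase that restrains the pathway, rose from 35.0 ± 6.75 to 100.3 ± 9.72 CPM (n = 4 each) in untreated cells, a log2 fold change of 1.52 (adjusted p = 1.66e-06), and by 1.41 (adjusted p = 4.02e-06) under angiotensin II. Irak1, a kinase below interleukin-1 and Toll-like receptors, rose by 0.99 (adjusted p = 2.61e-09) in untreated cells. Rel, the remaining Rel-family subunit, fell from 70.5 ± 6.91 to 34.9 ± 9.02 CPM under angiotensin II, a log2 fold change of -1.01 (adjusted p = 4.25e-05). In untreated cells, a value chosen after it was seen, it fell by -0.88 (adjusted p = 0.000165). Tnip3, a partner of A20, fell by -1.45 (adjusted p = 0.0287) in untreated cells and by -1.68 (adjusted p = 0.0162) under angiotensin II.

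Among 17 receptors tested, 6 fell and 0 rose in untreated cells (10 and 2 with the block). Under angiotensin II 7 fell and 0 rose (10 and 1 with the block). Over all genes, 12.8% and 13.3% were called lower in these comparisons, and 20.6% and 20.9% with the block. Called higher were 12.3% and 13.4%, and 20.0% and 20.4% with the block. Tnfrsf11a, which encodes RANK, fell by log2 fold changes of -1.09 (adjusted p = 4.33e-05) and -0.93 (adjusted p = 0.000247), and Tlr6 by -0.72 (adjusted p = 0.0337) and -0.96 (adjusted p = 0.00589). Of 3 ligand genes tested, Tnfsf12, which encodes TWEAK, rose in both comparisons, by 0.66 (adjusted p = 0.00112) and 0.58 (adjusted p = 0.00321). Interferon-stimulated genes fell beside these, 6 of 11 in untreated cells and 4 of 11 under angiotensin II, with summed levels of 172 to 188 CPM in untreated controls and 121 to 160 with knockdown. Under angiotensin II the sums overlapped, at 153 to 181 CPM in controls and 123 to 166 with knockdown, and their part was not tested. Of the markers tested, 2 smooth muscle genes rose and 1 fell in untreated cells, 2 fibroblast genes rose and 2 fell, 1 endothelial gene rose and 1 fell, and 0 macrophage genes were called. Under angiotensin II, 2 smooth muscle genes rose and 2 fell, 1 fibroblast gene rose and 2 fell, 1 endothelial gene rose and 1 fell, and the macrophage marker Cd14 rose (log2 fold change 0.39, adjusted p = 0.03).

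PDGF-BB, given to control cells only, raised Relb and Nfkb2 and lowered Nfkbia and Tnfaip3. This comparison shares its untreated controls with the untreated long CASC15 knockdown comparison. With PDGF-BB 23.6% of all genes were called higher and 20.0% lower, so 2 of 10 in each direction is close to the share of all genes. With the block, 4 of the 10 rose and 3 fell beside 28.3% and 26.2% of all genes.

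Relb was at 11.05, 9.96, 12.5 and 9.01 CPM in the untreated controls of P16 to P19 and at 14.5, 14.1, 15.1 and 14.2 with PDGF-BB, without overlap (log2 fold change 0.45, SE 0.117, adjusted p = 0.00414). Of all genes tested, 22.7% had every PDGF-BB library above every control library. Nfkb2 was at 60.9, 66.8, 64.2 and 60.5 CPM and at 83.9, 79.5, 85.3 and 83.3 (log2 fold change 0.40, SE 0.0583, adjusted p = 1.68e-05). These subunits belong to the non-canonical arm of the pathway, in which RelB pairs with p52.

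Tnfaip3 was at 83.6, 74.2, 90.7 and 80.2 CPM without PDGF-BB and at 49.4, 50.3, 57.7 and 52.5 with it (log2 fold change -0.65, SE 0.0714, adjusted p = 4.66e-07). Nfkbia was at 38.9, 43.0, 46.7 and 37.3 CPM against 32.5, 32.6, 34.2 and 29.4 (log2 fold change -0.37, SE 0.106, adjusted p = 0.00844), and it lost its call without P17 or without P18, while 7 of the 10, and 7409 of all genes, were called without P19. With the block, Rela fell (-0.13, adjusted p = 0.0246) and Nfkbiz (0.46, adjusted p = 2.42e-06) and Bcl3 (0.39, adjusted p = 0.00699) rose; these are the genes added without P19 too. Nfkbiz was at 87.5, 87.7, 83.3 and 51.1 CPM with PDGF-BB, and higher than the control of the same batch in 4 of 4 batches.

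With PDGF-BB 10 of 25 NF-kB targets rose and 2 fell. Mmp3, a matrix metalloproteinase, rose from 23.0 ± 2.24 to 186 ± 12.0 CPM (n = 4 each, log2 fold change 3.01, adjusted p = 5.66e-07), Mmp13 rose by 1.48 (adjusted p = 0.0356) and Ptgs2, the inducible cyclooxygenase, by 1.16 (adjusted p = 0.0107). Of 39 regulators, 10 rose and 9 fell (12 and 12 with the block), close to the shares of all genes. Those shares were 23.6% higher and 20.0% lower (28.3% and 26.2% with the block). Of 17 receptors, 2 rose and 1 fell (4 and 5 with the block). Tnfrsf12a, the receptor of TWEAK, rose by a log2 fold change of 1.97 (adjusted p = 0.000274), Irak1 rose by 0.77 (adjusted p = 1.39e-08) and Irak3, an inhibitor of Toll-like receptor signalling, fell by -0.90 (adjusted p = 0.00169). Of the ligands, Il33 rose by 0.93 (adjusted p = 0.00409) and Il18 fell by -1.44 (adjusted p = 3.49e-05). Fibroblast markers summed to 685 to 997 CPM with PDGF-BB and to 1895 to 2080 without it, and 7 of 11 interferon-stimulated genes fell. Smooth muscle markers summed to 703 to 820 CPM with PDGF-BB and to 907 to 1135 without it, with 1 gene called higher and 2 lower, among them Acta2, the smooth muscle actin gene (log2 fold change -0.94, adjusted p = 2.15e-05). The part of these in the values above was not tested.

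**Figure D4:**
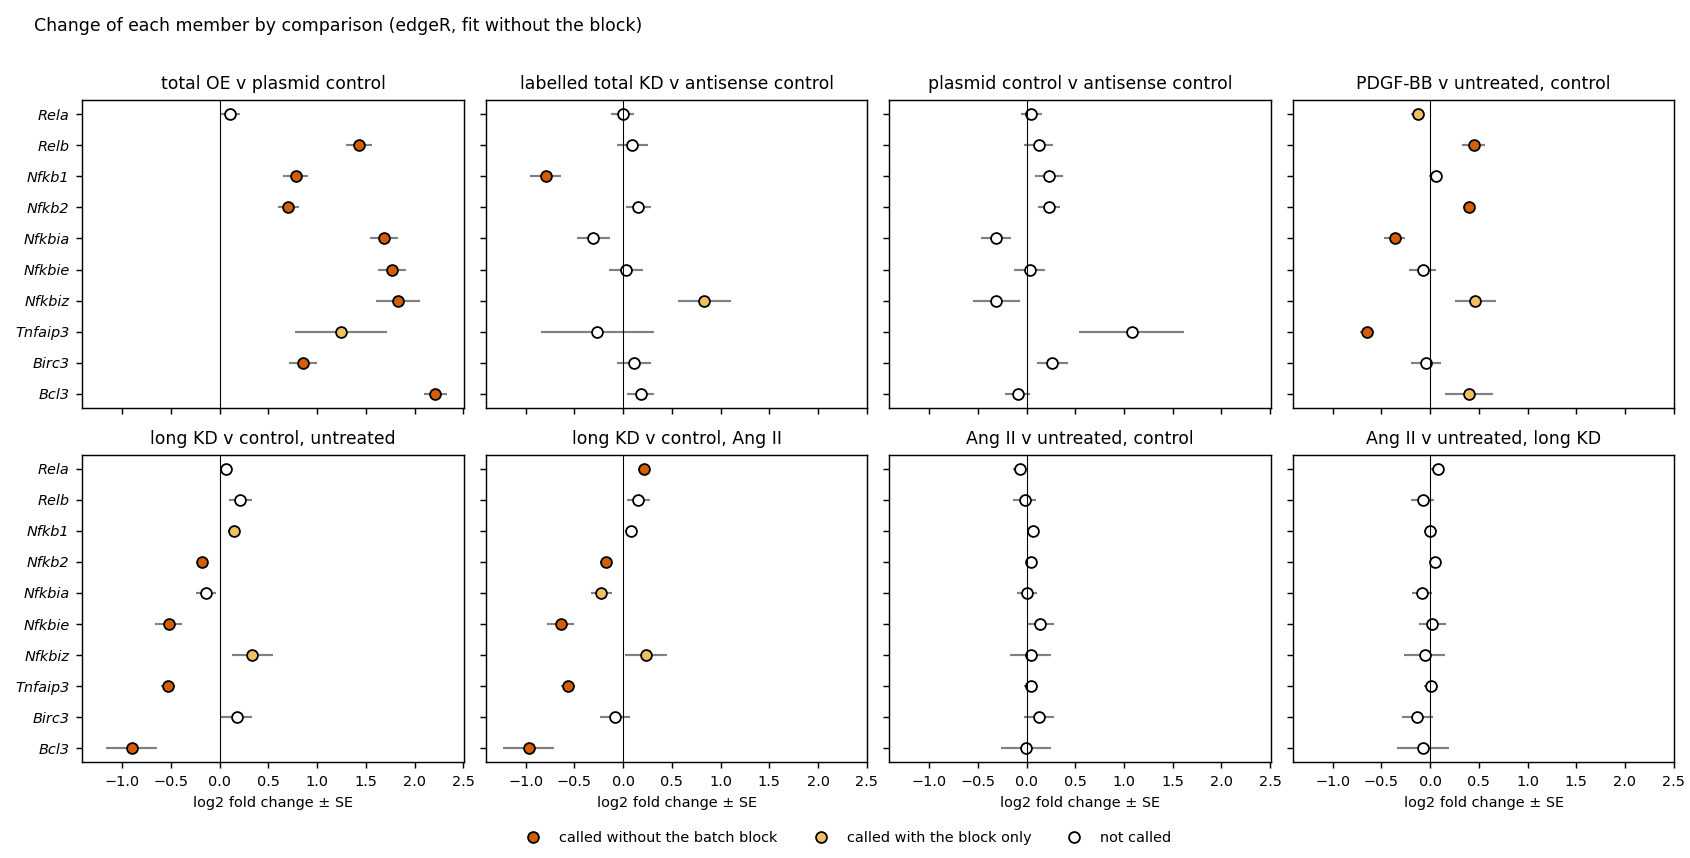
Log2 fold change with its SE (horizontal axes) of the 10 genes (vertical axes) in 8 comparisons, from the fit without the block; orange marks genes called in that fit, yellow those called with the batch block only, and the remaining marks genes not called. Overexpression has 8 orange marks to the right of 0, and long CASC15 knockdown has Bcl3, Tnfaip3, Nfkbie and Nfkb2 to the left of 0 in both panels.

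Angiotensin II was tested in control cells and in cells with long CASC15 knockdown, with the untreated controls shared with the comparisons above. No gene of the table was called by edgeR in either setting, nor for the interaction of knockdown and angiotensin II, so the percentages called were 0 in all 3, with the block too. At an unadjusted p under 0.05 there were 156, 174 and 166 genes (262, 324 and 326 with the block), and without the block 0 of the 10 were among them. DESeq2 called 0 of the 10 as well, and 1, 0 and 1 genes over the table (3, 0 and 2 with the block). In control cells the log2 fold changes of the 10 ran from -0.07 for Rela to 0.14 for Nfkbie, and with knockdown from -0.13 for Birc3 to 0.08 for Rela. The interaction for Bcl3 was -0.06 (SE 0.368) and for Tnfaip3 -0.04 (SE 0.101), so a difference between the knockdown effects without and with angiotensin II was not detectable for either, and the error for Bcl3 is wide.

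The order of groups differed between genes. In run 2, overexpression was the highest group for all 10, and it overlapped the next group only for Tnfaip3. Of all genes tested, 9.6% had every overexpression library above every control plasmid library. For Nfkbia, Nfkbiz and Bcl3 the next group was one of the antisense groups, which that share does not cover. In run 3, PDGF-BB gave the highest mean for Relb, Nfkb2, Nfkbiz and Bcl3, and overlapped the next group for Nfkbiz and Bcl3. It gave the lowest mean for Rela, Nfkbia, Tnfaip3 and Birc3, and overlapped the next group for each of these. The 2 groups with long CASC15 knockdown overlapped each other for all 10. For Nfkb2 the PDGF-BB libraries, at 79.5 to 85.3 CPM, lay above every other library of run 3, and the next 2 groups, the controls with and without angiotensin II at means of 65.2 and 63.1, overlapped. For Bcl3 the PDGF-BB mean of 11.4 ± 3.41 CPM overlapped the untreated control at 8.63 ± 2.25.

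Batch P19 stood apart for some of the genes. Nfkbiz was lowest in the P19 library in 7 of the 7 groups that hold one, at 0.593 to 0.703 times the mean of the other batches of its group, and Nfkbia was lowest in 7 of 7, at 0.739 to 0.889 times. Bcl3 was lowest in P19 in all 5 groups of run 3 and highest in both plasmid groups of run 2, with a median ratio of 0.588. Tnfaip3 was highest in P19 in 4 of 7 groups, and the largest ratio, 3.25, was that of the control plasmid. The labels name these values only as a batch.

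**Figure D5:**
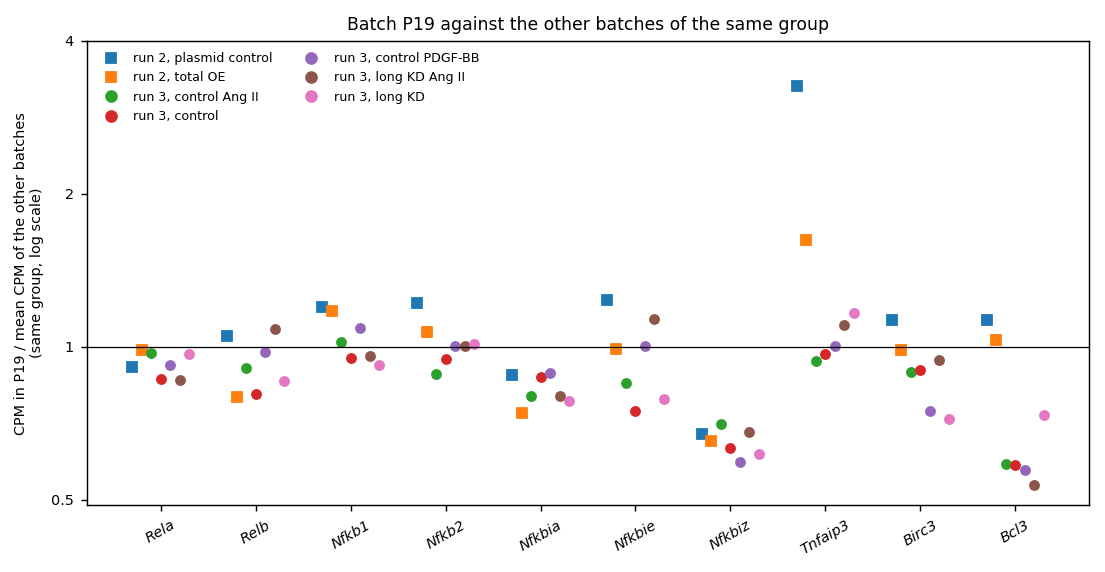
Ratio of the CPM in batch P19 to the mean CPM of the other batches of the same group (vertical axis, log scale) for each of the 10 genes (horizontal axis); squares are groups of run 2, circles groups of run 3, and the line at 1 marks equal levels. All 7 marks of Nfkbiz and of Nfkbia lie below 1, and the highest mark is Tnfaip3 with the control plasmid, at 3.25.

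In run 2 the 10 genes varied together mostly between groups: across 10 libraries, which share the same groups and batches, Pearson's r of log2 CPM was 0.99 for Nfkbie and Bcl3 and 0.98 for Nfkb2 and Birc3, and lowest for Nfkb1 and Nfkbiz, at 0.31. After group means were removed, it was 0.14 for Nfkbie and Bcl3, 0.72 for Nfkb2 and Birc3, and -0.85 for Nfkb1 and Nfkbiz. Across the 20 libraries of run 3 it ran from -0.63 for Rela and Nfkb2 to 0.74 for Nfkb2 and Bcl3. Within groups of run 3, Relb and Nfkbie had an r of 0.92 and Rela and Bcl3 of 0.87, against 0.09 and -0.32 across the 20 libraries. These are descriptions over libraries that share depth and batch, and no test was made.

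Genes of most similar pattern were ranked among 12041 genes by the lower of the correlations over the 10 libraries of run 2 and the 20 of run 3, centred within each run. For Bcl3 they were Sbno2 (0.89 and 0.89), Vegfc (0.96 and 0.89) and Il17ra (0.90 and 0.89), and for Nfkbia they were Il6st (0.93 and 0.85), Il6ra (0.85 and 0.89) and Vnn3 (0.88 and 0.83). Nfkb2 was closest to Pprc1 (0.95 and 0.95), Ppan (0.94 and 0.94) and Hk2 (0.97 and 0.93), Tnfaip3 to Amotl2 (0.94 and 0.91), Gadd45b (0.93 and 0.89) and Grb14 (0.89 and 0.92), and Nfkbie to Stx6 (0.94 and 0.89), Unc93b1 (0.88 and 0.89) and H6pd (0.85 and 0.86). Nfkbiz was closest to Lrig1 (0.75 and 0.74), Cxcl5 (0.91 and 0.73) and Ptpn3 (0.87 and 0.72), and Rela to Fbxo31 (0.92 and 0.91), Hif1a (0.81 and 0.80) and Ergic3 (0.80 and 0.85). Relb was closest to Nemp1 (0.88 and 0.82), Tmem138 (0.96 and 0.80) and Cd82 (0.93 and 0.77), Nfkb1 to Abi3bp (0.92 and 0.77) and Fbxl17 (0.77 and 0.76), and Birc3, with the weakest likeness, to Itpk1 (0.75 and 0.64), Pla2g15 (0.82 and 0.62) and Actr5 (0.62 and 0.67).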

How the data were processed

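Expected counts, 1 value per gene and library, were deposited by the authors, who made them with RSEM 1.3.1 and STAR 2.7.11b per the submitters' processing notes. These also name the builds GRCm39 and mm10; annotation and strandedness are not given in the sources used here. No column was left unused. Expected counts were rounded. Symbols were matched by Ensembl identifier without version to GENCODE: 26848 identifiers had none, and 98.7% of counts fell on matched ones. In R 4.3.3, edgeR 4.0.16 filterByExpr (minimum count 10, minimum total 15), TMM scaling and a robust quasi-likelihood fit with 1 coefficient per group were applied in each run, with Benjamini-Hochberg adjustment within each of 9 comparisons. CPM are scaled with TMM factors.

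The labelled batch, which goes with the replicate number, pairs the libraries. After removing group means, same-numbered libraries had a mean correlation of 0.168 to 0.499 across genes, with a lowest pair of 0.062; centring makes the values of other pairs negative (-0.253 to -0.0559), so the pairing is taken from the label. The fit without the block stayed the main one, with the block beside it. The 10 genes and all lists were chosen with earlier results of these data known. Named genes are the 10, up to 3 called genes per list and comparison with a mean CPM of at least 1, and up to 3 genes of most similar pattern per member, of which 1 is not reported here. The script was tested on simulated data. DESeq2 1.42.0 was an alternative, with other scaling, filters, subsets and left-out libraries. In 38 pairs of replicates, no pair differed by less than sampling noise (lowest chi-square per degree of freedom 4.22).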

Additional observations from a re-analysis of the deposited data

Results flagged for a closer look

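In 4 of 50 groups of 4 libraries tested, over the 10 genes, 1 library lay far from the others by Dixon's criterion, and chance flags about 1 in 20 groups. Rela was at 123 CPM in the P16 control library with angiotensin II, where the next was at 111. Relb was at 10.2 CPM in the P18 library of long CASC15 knockdown with angiotensin II, where the next was at 12.0. Nfkbiz was at 43.9 CPM in the P19 control library with angiotensin II, where the next was at 61.3, and at 51.1 CPM in the P19 library with PDGF-BB, where the next was at 83.3.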

How the results depend on the processing

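Of 2030 values of single genes under the alternatives, 1886 kept their side of the threshold, 88 lost the call, 56 gained it and 0 called values reversed, while 117 uncalled values had the other sign. The numbers of the 10 genes called moved with several alternatives, among them a minimum absolute log2 fold change of 1. For the libraries labelled total CASC15 knockdown (1 called), 2 were called with the block, with no filter, with only the groups compared, and with DESeq2 and the block, and 0 with the minimum fold change or a mean CPM of at least 1, and leaving out libraries gave 0 to 0. For overexpression (8) the minimum fold change and only the groups compared each left 5, and leaving out libraries gave 0 to 9. Between the controls (0), 1 was called with no filter. For PDGF-BB (4), 7 were called with the block, with DESeq2 and the block, 0 with the minimum fold change, and 3 to 7 with libraries left out. For long CASC15 knockdown, the minimum fold change left 0 in untreated cells (4) and 0 under angiotensin II (5), where only the groups compared gave 3, and leaving out libraries gave 1 to 6 and 2 to 7. Beyond the calls named in the report, the replicate block changed no call of the 10 genes. A left-out library that leaves 1 in a group assumes that it varies like the others.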
